A study of Homo sapiens with 14 samples.

Results

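Complex I of the respiratory chain is built from proteins of 2 genomes, and the transcripts of both were followed through the series. The members were the protein-coding genes whose symbols start with NDUFA, NDUFB, NDUFC, NDUFS or NDUFV, without the assembly factors named NDUFAF, together with the 13 protein genes of the mitochondrial genome. They were 53 of 63677 gene identifiers in the bulk RNA-seq tables: 40 nuclear and 13 mitochondrial-encoded genes. By role, 7 of the nuclear members are core subunits, 30 are accessory subunits, NDUFA4 and its paralog NDUFA4L2 lie outside complex I, and NDUFC2-KCTD14 is a readthrough transcript. Of the 13 mitochondrial genes, 7 (MT-ND1 to MT-ND6 and MT-ND4L) encode core subunits of complex I and 6 encode subunits of complexes III, IV and V. In the table of gastruloid nuclei, 52 of 17493 genes were members, NDUFC2-KCTD14 being the one not listed.

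All samples came from H9, an established line of human embryonic stem cells (hESC). The bulk libraries were 2 of undifferentiated hESC (hESC), 3 of definitive endoderm expressing dCAS9-KRAB, a repressor without nuclease activity, with no sgRNA (DE_ctl), 3 of the same endoderm with the sgRNA against LTR5 elements (DE_CRISPRi), and 2 each of foregut without (FG_ctl) and with that sgRNA (FG_CRISPRi). Endoderm was made over 3 days with activin A at 100 ng/ml and the GSK3 inhibitor CHIR-99021 at 5 and then 0.5 μM, and foregut took 3 more days. Gastruloids were aggregated from 800 cells per well after CHIR-99021 at 3 μM, with a Rock inhibitor at 10 μM, and their nuclei were read at 72 h in 1 preparation for RNA. The hESC labels do not name dCAS9-KRAB, so for DE_ctl against hESC the stage and the repressor cannot be told apart. The foregut labels conflict: title and source name give FG_ctl and FG_CRISPRi, while the status field calls the former hESC and the latter endoderm without sgRNA. The groups were taken from the titles.

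Complex I oxidises NADH, passes the electrons to ubiquinone and pumps protons across the inner mitochondrial membrane. Its catalytic core contains subunits of both genomes, and a shell of accessory subunits, all nuclear, is needed for assembly and stability. Mitochondrial DNA is transcribed from both strands as long precursors that are cut at the tRNAs, MT-ND6 being the one protein gene on the strand opposite to the others. Nuclear genes of respiratory proteins are read by RNA polymerase II, and NRF1, GABPA (an ETS factor), YY1 and SP1 are among the factors known at their promoters. Pluripotent cells are known for their reliance on glycolysis, and respiration generally increases as they differentiate.

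Gene reads per bulk library ranged from 11583063 to 37152434. Levels are given as CPM, the reads of a gene per 1000000 gene reads of the library. Endoderm markers summed to 31.2 to 42.4 CPM in hESC, 5464 to 6731 CPM in the 6 endoderm libraries and 635.5 to 910.1 CPM in the 4 foregut libraries. Foregut markers summed to 1837 to 2283 CPM in the 4 foregut libraries, at most 34.8 CPM in endoderm and 6.88 to 8.02 CPM in hESC. The 4 foregut libraries thus carried foregut RNA whatever their status field says. These markers do not show which of the 4 had the sgRNA, and that assignment rests on the titles alone. Pluripotency markers summed to 1839 to 2840 CPM in hESC, 1610 to 2596 CPM in endoderm and 785 to 1019 CPM in foregut. Mesoderm markers summed to 1.02 to 1.36 CPM in hESC and to 46.9 to 111 CPM in endoderm, and their part in the results below was not tested. In bulk RNA, fewer cells of a type and less RNA per cell cannot be told apart. No label names a batch, and p-values measure the spread between libraries, which may be technical.

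The nuclear members are scattered over the chromosomes, and 3 promoters are shown because their genes, NDUFA3, NDUFA9 and NDUFS6, passed the test in both stage comparisons below. NDUFA5 also did, and the entry counted for it, the first of 3 and not shown, holds none of the letters searched. The sequences are from RefSeq (build GRCh38.p14), 250 bases before and 50 after the annotated start, and capitals mark matches to NRF1 (GCGCA, any base, GCGC), ETS (CCGGAAG) or YY1 (AAGATGGC) letters on either strand. NDUFA3 lies at chr19:54102605-54102904, NDUFA9 at chr12:4648864-4649163 and NDUFS6 at chr5:1801157-1801456, all on the plus strand.
NDUFA3: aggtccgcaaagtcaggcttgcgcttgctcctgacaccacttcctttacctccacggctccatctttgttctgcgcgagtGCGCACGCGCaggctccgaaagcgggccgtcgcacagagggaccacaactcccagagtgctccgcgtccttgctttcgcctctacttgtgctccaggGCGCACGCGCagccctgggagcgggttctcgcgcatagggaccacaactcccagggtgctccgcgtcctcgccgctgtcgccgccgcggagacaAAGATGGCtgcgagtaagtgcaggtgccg
NDUFA9: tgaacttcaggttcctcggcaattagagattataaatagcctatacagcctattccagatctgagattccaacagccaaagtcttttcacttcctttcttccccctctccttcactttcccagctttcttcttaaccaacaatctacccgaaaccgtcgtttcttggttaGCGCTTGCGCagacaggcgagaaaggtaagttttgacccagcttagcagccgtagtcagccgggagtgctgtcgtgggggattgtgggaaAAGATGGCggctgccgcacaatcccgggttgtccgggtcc
NDUFS6: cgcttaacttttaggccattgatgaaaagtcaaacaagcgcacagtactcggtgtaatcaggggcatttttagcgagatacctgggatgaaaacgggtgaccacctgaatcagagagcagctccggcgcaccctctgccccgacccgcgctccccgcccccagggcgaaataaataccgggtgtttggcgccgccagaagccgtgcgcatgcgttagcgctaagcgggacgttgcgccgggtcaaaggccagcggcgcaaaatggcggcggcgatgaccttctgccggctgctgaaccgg
NDUFA3 holds 2 NRF1 matches and 1 YY1 match, NDUFA9 holds 1 of each, and NDUFS6 holds neither but has 1 match to the SP1 letters GGGCGG, left in lower case.

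Promoters were found for 32 of the nuclear members, 1 entry per gene. The NRF1 letters were in 6 of the 32 (18.8%) against 6.28% of 27305 promoters of all genes, and the YY1 letters in 6 (18.8%) against 3.03%. The ETS letters were in 5 (15.6%) against 10.7%, and the SP1 letters in 20 (62.5%) against 44.6%. These are counts of letters in a 300-base window and not of bound factors. The median GC content of the windows was 61.8% for members and 58.3% for all genes.

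In the mitochondrial genome some members share bases on the same strand, and a read in them can be counted for either gene or for none. MT-ATP6 ends on the base where MT-CO3 starts, chrM:9207, and 2 longer overlaps are shown here. The overlap of MT-ATP8 with MT-ATP6 is chrM:8527-8572, 46 bases that make up 22.2% of MT-ATP8 and 6.75% of MT-ATP6. That of MT-ND4L with MT-ND4 is chrM:10760-10766, 7 bases. Both were read from the GRCh37 mitochondrial sequence of 16569 bases, which may differ from the copy used for alignment.
MT-ATP8 and MT-ATP6: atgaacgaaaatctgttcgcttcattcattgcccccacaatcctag
MT-ND4L and MT-ND4: atgctaa

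The 13 mitochondrial genes together took between 5.98% and 28.4% of all gene reads, and the nuclear members together between 2428 and 3407 CPM. To set aside the space that mitochondrial reads take in a library, the nuclear sum was also taken per 1000000 reads outside the mitochondrial genome (non-mitochondrial CPM), where it ran from 2647 to 4324. On a per-length scale, CPM per kb of the canonical transcript, the highest level in hESC was that of MT-CO3, a core subunit of complex IV, at 46744, followed by MT-CO2 at 30774 and MT-CO1 at 30060. The other strand's gene MT-ND6 had 71.7 CPM per kb, the lowest of the 13. Among nuclear members NDUFS5, an accessory subunit of the intermembrane space side, was highest in hESC at 485 CPM per kb.

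Over the 12 libraries the mitochondrial-encoded members spread more than the nuclear ones. Of the 40 nuclear members, 34 were above 5 CPM in every library. The highest over the lowest library was 5.95 at the median of the 13 and 2.47 at the median of those 34. NDUFA13, NDUFA7 and NDUFV2 never reached 5 CPM in any, although each encodes a regular subunit of the complex, and neither did the readthrough NDUFC2-KCTD14. Their canonical transcripts are overlapped on the same strand by another annotated gene over 83.9%, 77.9% and 90.0% of the length for the first 3. The same genes were far from silent in gastruloid nuclei, counted with another pipeline, at 570 (NDUFA13), 104 (NDUFA7) and 159 (NDUFV2) UMI counts per 1000000. Their bulk values are therefore given here but not read as levels. NDUFB8 (72.0%) and NDUFA11 (68.2%) share transcript length with other genes in the same way and are also uncertain.

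The first comparison, DE_ctl against hESC, asks what changed on differentiation to endoderm. Of the mitochondrial-encoded members 9 of 13 passed as lower in DE_ctl, and the nuclear members were called in both directions. The 13 mitochondrial genes took 21.8% and 15.1% of gene reads in the hESC libraries and 5.98%, 10.6% and 11.1% in the DE_ctl libraries. All DE_ctl libraries lay below both hESC libraries. The difference of means was −9.25 percentage points, with an exact permutation p of 0.2 (two-sided), which is the smallest p that 2 against 3 libraries allow. The nuclear sum in non-mitochondrial CPM was 3887 and 3540 in hESC and 2647, 3357 and 3683 in DE_ctl, and these overlapped (exact permutation p = 0.4).

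The log2 ratio of mitochondrial-encoded to nuclear member reads within a library does not depend on depth or scaling. It was 6.23 and 5.69 in hESC and 4.62, 5.19 and 5.14 in DE_ctl, again without overlap (difference −0.98, exact permutation p = 0.2). Over the 68 tests of library values in the series the adjusted p was 0.618 or more. The DE_ctl 1 library had the lowest mitochondrial share and the lowest nuclear sum of its group. Leaving out single libraries kept the difference in the ratio between −1.25 and −0.70.

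**Figure D1:**
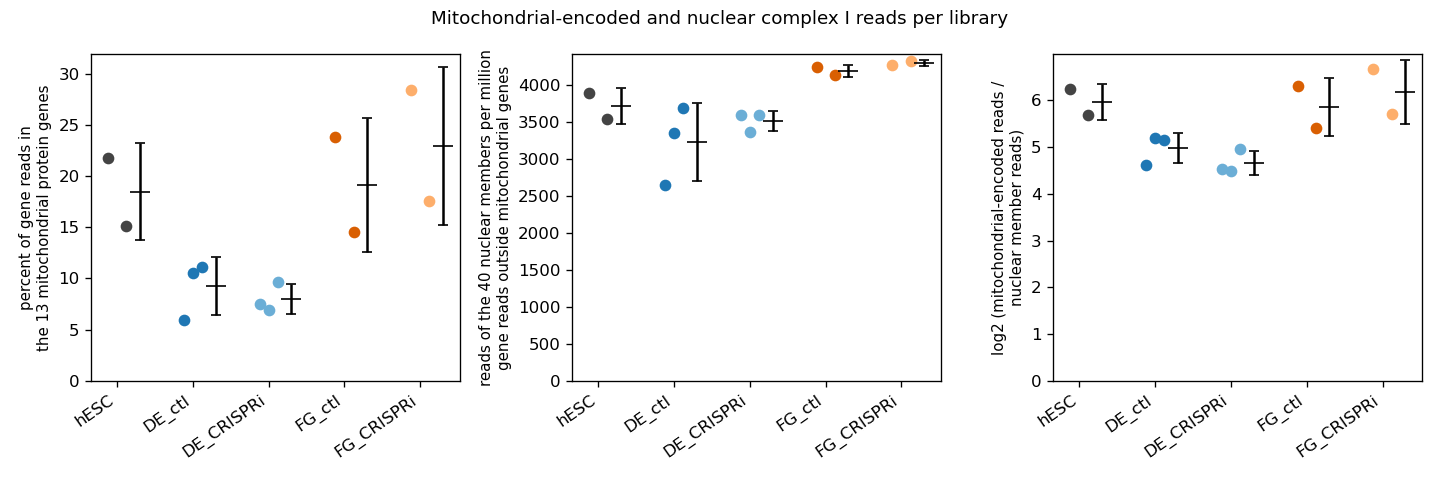
Percent of gene reads in the 13 mitochondrial protein genes, nuclear member sum in non-mitochondrial CPM, and their log2 ratio, for each of the 12 bulk libraries by group; points are libraries and bars the mean ± SD. The 6 endoderm libraries sit between 5.98% and 11.1%, below the 14.5% to 28.4% of the hESC and foregut libraries.

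Gene by gene, 9 of the 13 mitochondrial members fell and none rose (edgeR quasi-likelihood test, Benjamini-Hochberg adjusted p under 0.05). Of all 20818 genes tested, 37.9% passed, 19.6% higher and 18.3% lower. The median log2 fold change of the 13 was −1.34, against 0.04 for all genes. With a fold over 2 as well, the study's threshold, 8 of the 13 passed beside 26% of genes, and the CPM of 11 of the 13 lay lower without overlap beside 31.4% of genes (28.5% lay higher). MT-ATP6, a complex V subunit, had 21375 and 13737 CPM in hESC and 3266, 5796 and 6087 CPM in DE_ctl. It fell by 1.74 on the log2 scale (SE 0.26, adjusted p = 8.28e-05). MT-ND2, one of the proton-pumping core subunits, had 12626 and 8272 CPM in hESC and 2985, 3346 and 3624 CPM in DE_ctl, and fell by 1.596 (SE 0.21, adjusted p = 2.16e-05). In both genes every DE_ctl library was below every hESC library.

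The other falls were those of MT-ATP8 (−1.73), MT-CYB of complex III (−1.46), MT-CO3 (−1.42) and MT-CO2 (−1.06) of complex IV, and the complex I genes MT-ND1 (−1.36), MT-ND3 (−1.34) and MT-ND4L (−0.73). The 4 that did not pass were MT-CO1 (−0.38, adjusted p = 0.233), MT-ND4 (−0.52, 0.133), MT-ND5 (−0.45, 0.0749) and MT-ND6 (0.04, 0.912). The 12 genes of the strand opposite to MT-ND6 thus had log2 fold changes from −1.74 to −0.38. Without the hESC 1 library, MT-CO2, MT-CO3, MT-CYB and MT-ND4L lost the call. Over the 13 other fits their log2 fold changes ran from −1.88 to −0.48. No share of all genes is given for the fit without hESC 1, so the loss is not read as a result about the members.

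Within the 13-gene pool the composition moved as well. MT-CO1, the catalytic subunit of complex IV, made up 24.1% and 26.5% of the pool in hESC and 37.2%, 37.045% and 36.5% in DE_ctl. MT-ATP6 made up 9.80% and 9.07% in hESC and 5.46%, 5.49% and 5.46% in DE_ctl. Neither gene's groups overlapped, and the spread among the DE_ctl libraries (SD 0.39 and 0.02 percentage points) was small beside differences of 11.6 and −3.97 points. Each has an exact permutation p of 0.2, the smallest allowed. MT-ND4 took 9.89% and 9.77% of the pool in hESC and 12.7%, 13.4% and 13.2% in DE_ctl. MT-CO3 went the other way, with 20.8% and 18.4% in hESC and 11.9%, 15.1% and 14.7% in DE_ctl.

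The 2 mitochondrial ribosomal RNAs did not follow the protein genes. MT-RNR2 had a log2 fold change of 0.16 (adjusted p = 0.673) and MT-RNR1 of −0.11 (adjusted p = 0.782). Reads of the 13 protein genes per read of MT-RNR2 were 6.54 and 9.72 in hESC and 2.84, 3.70 and 3.74 in DE_ctl, without overlap (exact permutation p = 0.2). How much ribosomal RNA poly(A) selection retained was not tested.

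**Figure D2:**
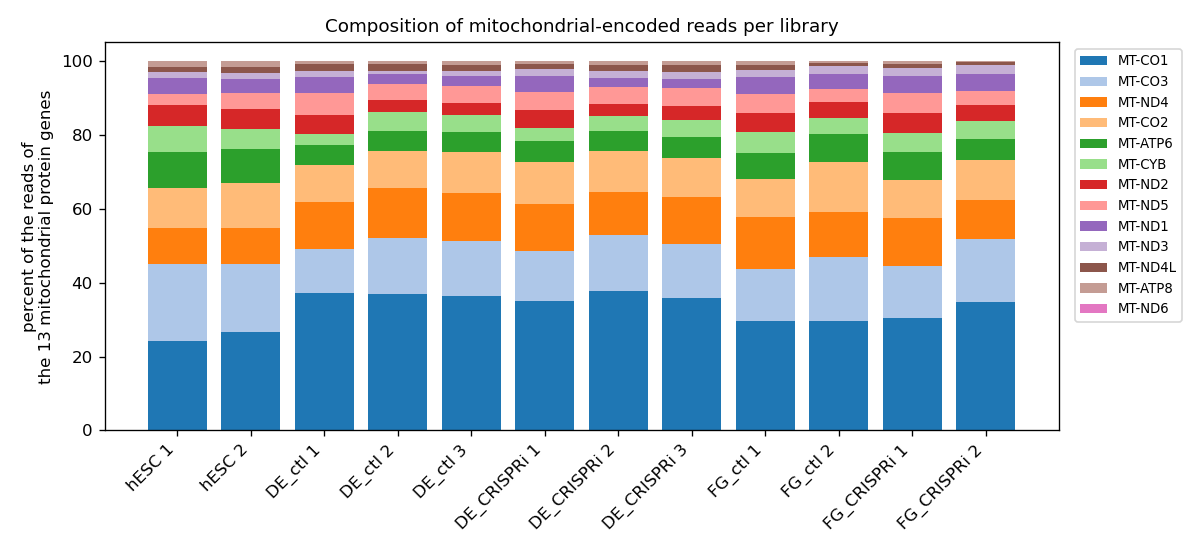
Percent of the reads of the 13 mitochondrial protein genes taken by each gene, as stacked bars for each of the 12 bulk libraries. MT-CO1 takes 24.1% and 26.5% in hESC, 35.1% to 37.7% in the 6 endoderm libraries and 29.6% to 34.7% in the 4 foregut libraries.

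Of the 39 nuclear members tested, 7 were higher and 4 lower in DE_ctl, 28.2% in all beside the background of 37.9% of genes. Their median log2 fold change was 0.10, 8 lay higher (background 28.5%) and 12 lower (background 31.4%) without overlap, and 3 passed with a fold over 2 (background 26%). None of the 7 core subunits passed, among them NDUFV1 (0.13), NDUFS8 (0.32), NDUFS7 (−0.15), NDUFS1 (−0.21) and NDUFS3 (−0.48, adjusted p = 0.0776), with NDUFV2 near 0 counts. NDUFV1, which binds NADH, had 109 and 116 CPM in hESC and 105, 126 and 121 CPM in DE_ctl. These groups overlap, and the 95% interval of its log2 fold change was −0.22 to 0.49.

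The largest change of any member was that of NDUFA4L2, a paralog of the complex IV subunit NDUFA4 that is known as a target of hypoxia signalling. It had 0.08 and 0.04 CPM in hESC, 3 reads in all, and 43.6, 11.7 and 17.8 CPM in DE_ctl. The ratio of the pooled rates was 374, with a 95% counting interval of 128 to 1817, and its adjusted p was 2.87e-07 (edgeR). NDUFA4 itself had 329 and 316 CPM in hESC and 201, 277 and 317 CPM in DE_ctl, which overlap (log2 fold change −0.21, adjusted p = 0.462).

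The accessory subunits moved in both directions. Lower in DE_ctl were NDUFC2 of the membrane arm (−1.56, SE 0.25), NDUFA5 of the matrix arm (−1.26, SE 0.20), NDUFA9 at the joint of the arms (−0.81, SE 0.25) and the zinc-binding NDUFS6 (−0.75, SE 0.23). NDUFA5 had 79.8 and 99.3 CPM in hESC and 42.5, 30.2 and 33.3 CPM in DE_ctl, and NDUFA9 had 21.8 and 15.7 CPM against 8.85, 11.2 and 10.6 CPM. Neither overlapped. Higher were NDUFA3 (0.83, SE 0.23), NDUFS4 (0.65, SE 0.19), NDUFB8 (0.63, SE 0.21), NDUFA2 (0.60, SE 0.21), NDUFA1 (0.58, SE 0.22) and NDUFB4 (0.54, SE 0.18), all below 2-fold. NDUFA3, a small membrane arm subunit, had 34.4 and 40.5 CPM in hESC and 45.5, 67.7 and 74.7 CPM in DE_ctl.

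The small rises were the least stable calls. The number of nuclear members called higher, 7 with all libraries, was 1 without DE_ctl 3, 4 without DE_ctl 2 and 12 without DE_ctl 1. Without TMM scaling 3 nuclear members were higher and 5 lower, while for the mitochondrial members 0 were higher and 10 lower. No share of all genes is given for these fits, so their counts are not read as a result about the members. NDUFA5, NDUFC2 and NDUFA4L2 passed in all 13 other fits of this comparison, as did MT-ATP6, MT-ATP8, MT-ND1, MT-ND2 and MT-ND3. NDUFC2 shares 19.7% of its canonical transcript with the readthrough NDUFC2-KCTD14, which had no read in 11 of 12 libraries. The readthrough shares 99.6% of its exon bases with NDUFC2 or KCTD14, so its low count does not show that it was absent. The bulk level of NDUFC2 is uncertain as given above, and so is its call.

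Genes that work beside the members were taken from 8 lists. The background for all of them in this comparison was 19.6% of genes higher and 18.3% lower. Of 19 genes that maintain and express mitochondrial DNA and its transcripts, 14 were lower in DE_ctl and none higher, with a median log2 fold change of −0.80. TFAM, which packages mitochondrial DNA and starts its transcription, had a mean of 102 CPM ± 18.8 (SD, n = 2) in hESC and 36.2 CPM ± 8.21 (SD, n = 3) in DE_ctl. It fell by 1.42 on the log2 scale (SE 0.20, adjusted p = 5.09e-05 by edgeR). The transcription factor TFB2M (−1.75) and FASTKD2, which binds mitochondrial RNA (−1.72), fell too. The list was chosen with results of these data known, and its relation to the mitochondrial transcripts was not tested.

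Among 16 assembly factors of complex I, 6 were lower and 1 higher, with a median of −0.34. NDUFAF4 (−1.39), NDUFAF6 (−1.19) and TMEM126B (−1.17), which act on intermediates of the complex, fell. Of 14 tested nuclear subunits of complex IV, 4 were higher and none lower (median 0.42), among them COX6B1 (0.85) and COX6C (0.81). Complex V had 3 higher and 2 lower of 15, with ATP5F1E at 1.24 and ATP5MC1 at −1.07, and complex III 1 higher and 2 lower of 9. In complex II, 1 of 4 passed, the membrane anchor SDHD (−1.55). Of 9 regulators of mitochondrial biogenesis, 1 was higher and 2 lower: the coactivators PPARGC1B (−3.29) and PPRC1 (−1.70) fell and the nuclear receptor ESRRG (2.35) rose.

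The second stage comparison, FG_ctl against DE_ctl, uses the DE_ctl libraries again and has no stated common batch, so stage and preparation cannot be told apart. Of the mitochondrial-encoded members 7 of 13 passed as higher in foregut. The 13 genes took 23.8% and 14.5% of gene reads in FG_ctl, above all 3 DE_ctl libraries (difference 9.93 percentage points, exact permutation p = 0.2, the smallest allowed). The log2 ratio to the nuclear members was 6.30 and 5.41 in FG_ctl, a difference of 0.87 (exact permutation p = 0.2). The nuclear sum in non-mitochondrial CPM was 4245 and 4134, also above every DE_ctl library (difference 960.0, exact permutation p = 0.2). The FG_ctl libraries differed from each other in mitochondrial share by more than the DE_ctl libraries did.

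Of the 13 mitochondrial members, 7 rose and none fell, where 33.9% of 21466 genes passed, 15.9% higher and 18% lower. The median log2 fold change of the 13 was 1.16, against −0.09 for all genes. With a fold over 2, 7 of the 13 and 4 of the 39 nuclear members passed beside 29% of genes, and at an unadjusted p 11 and 16 did beside 44.5%. The CPM of 9 of the 13 lay higher without overlap beside 25.2% of genes, and of none lower beside 33.6%. MT-ND3, a small core subunit, had 1050, 1017 and 1274 CPM in DE_ctl and 4983 and 3290 CPM in FG_ctl. It rose by 1.92 on the log2 scale (SE 0.24, adjusted p = 3.53e-04 by edgeR). MT-ND1 (1.56), MT-ND2 (1.54), MT-ATP6 (1.48), MT-CO2 (1.20), MT-CO3 (1.16) and MT-ND4 (1.12) rose as well. Not passing were MT-CYB (1.30, adjusted p = 0.0619), MT-ND5 (0.998), MT-ATP8 (0.97), MT-ND6 (0.80), MT-CO1 (0.76, adjusted p = 0.0815) and MT-ND4L (0.38). Which of the mitochondrial members passed depended on the FG_ctl library left out. Over the 13 other fits the log2 fold change of MT-ND3 ran from 1.47 to 2.31 and that of MT-ND4 from 0.46 to 1.62.

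The pool composition in foregut lay between those of hESC and endoderm for MT-CO1, at 29.6% and 29.7% in FG_ctl, and for MT-ATP6, at 7.05% and 7.57%. MT-ND3 (2.095% and 2.26%) lay above both groups and MT-ND4L (1.36% and 0.63%) below both, and the other 9 genes overlapped at least 1 of them. Protein-gene reads per MT-RNR2 read were 5.11 and 5.36, above the 2.84 to 3.74 of DE_ctl. MT-RNR1 rose (0.81, adjusted p = 0.0262) and MT-RNR2 did not pass (0.50, adjusted p = 0.169).

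Nuclear copies of mitochondrial genes set the foregut libraries apart from the other 8. The pseudogene MTCO1P12 had 3821 to 7162 CPM in the 4 foregut libraries and 61.8 to 277 CPM in the others. Per 1000 reads of MT-CO1 that is 82.96 to 106 in foregut and 2.35 to 6.71 elsewhere. MTND4P12 went the other way, with 0.34 to 0.53 reads per 1000 reads of MT-ND4 in foregut and 12.2 to 20.4 elsewhere. With the pseudogene reads added to the mitochondrial sum, the difference of FG_ctl against DE_ctl was 0.90 in the log2 ratio and 10.4 percentage points in share. A difference in how such reads were placed between the foregut and the other libraries was not tested.

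Of the 39 nuclear members, 8 rose (background 15.9%) and 1 fell (background 18%), with a median of 0.24. The fall was that of NDUFS1, the largest iron-sulphur subunit, at 69.3, 83.4 and 79.7 CPM in DE_ctl and 32.6 and 28.1 CPM in FG_ctl (−1.34, SE 0.23, adjusted p = 2.24e-03 by edgeR). The other core subunits did not pass, with NDUFV1 at −0.92 (adjusted p = 0.0578), NDUFS3 at 0.15, NDUFS7 at 0.15, NDUFS8 at 0.08 and NDUFV2 near 0 counts. NDUFV1 had 36.2 and 90.3 CPM in the FG_ctl libraries, so that its spread was wide.

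All 8 rises were of accessory subunits: NDUFA9 (1.32), NDUFA3 (1.24), NDUFA12 (1.22), NDUFB11 (0.92), NDUFS6 (0.91), NDUFA5 (0.86), NDUFB1 (0.77) and NDUFV3 (0.70). NDUFA9 had 23.7 and 27.2 CPM in FG_ctl, above the 8.85 to 11.2 CPM of DE_ctl. NDUFA12, a matrix arm subunit, had 130 and 104 CPM in FG_ctl against 37.02, 54.6 and 61.1 CPM in DE_ctl. NDUFA5, NDUFA9 and NDUFS6 had been lower in DE_ctl than in hESC and were higher in FG_ctl than in DE_ctl, and since both comparisons share DE_ctl, a low value there would give both. NDUFA3 was higher in each step. The number of nuclear members called higher, 8 with all libraries, was 5 without DE_ctl 1 or DE_ctl 3 and 4 without DE_ctl 2. The share of all genes in these fits is not given, so these counts are not read as a result about the members. Nuclear members lay higher without overlap in 17 of 39 cases (background 25.2%) and lower in 7 (background 33.6%). NDUFA4 (−0.65, adjusted p = 0.0672) and NDUFA4L2 (−0.90, adjusted p = 0.200) did not pass.

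For the neighbouring lists the background was 15.9% of genes higher and 18% lower. The mitochondrial DNA and transcript machinery had 1 gene higher and 6 lower of 19 (median −0.50). LRPPRC, which stabilises mitochondrial messenger RNA, fell by 1.92 on the log2 scale from 254 CPM ± 40.8 (SD, n = 3) in DE_ctl to 66.7 CPM ± 3.22 (SD, n = 2) in FG_ctl. TFAM fell by 1.26, to a mean of 15.05 CPM, and TFB1M rose by 0.97. Assembly factors had 3 higher and 1 lower of 16, with NDUFAF8 at 1.72 and NUBPL, an iron-sulphur carrier, at −2.94. Complex II had 3 lower of 4, complex III 2 higher and 3 lower of 9, complex IV 2 higher and 1 lower of 16, and complex V 1 higher and 3 lower of 15, the catalytic subunit ATP5F1B falling by 1.31. Of the 9 regulators, 2 were lower, GABPA (−1.84) among them.

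**Figure D3:**
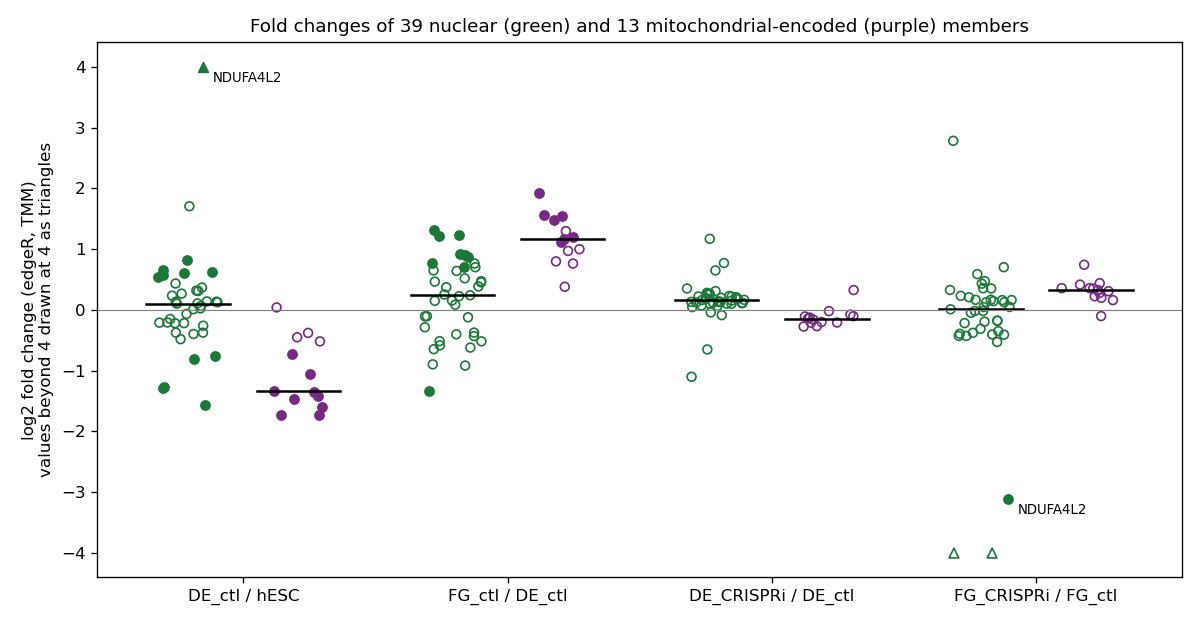
Log2 fold change of the 39 nuclear (green) and 13 mitochondrial-encoded (purple) members in 4 comparisons, with filled points for adjusted p under 0.05 and black lines at the medians; 3 values beyond 4 are drawn as triangles at the edge. The mitochondrial median is at −1.34 for DE_ctl against hESC and at 1.16 for FG_ctl against DE_ctl, and the nuclear medians are at 0.10 and 0.24.

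The sgRNA comparison in endoderm, DE_CRISPRi against DE_ctl, asks whether repression at LTR5 elements reached these genes. No member passed the test, in a comparison where 0.0343% of 20407 genes did, 0.0049% higher and 0.0294% lower (edgeR). DESeq2 and limma-voom also called none, and 1 member had an unadjusted p under 0.05 where 5.18% of genes did. That was NDUFA6, an accessory subunit of the matrix arm, at 97.8, 120 and 132 CPM in DE_ctl and 222, 160 and 153 CPM in DE_CRISPRi (log2 fold change 0.65, adjusted p = 0.656). Its groups did not overlap. Higher without overlap were 4 of the 39 nuclear members (background 4.65%) and lower 1 (background 5.5%), NDUFA7, which is near 0 counts, with none of the 13 mitochondrial genes in either count.

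The 13 genes took 7.52%, 6.88% and 9.67% of gene reads in DE_CRISPRi, within the range of DE_ctl (exact permutation p = 0.7). The log2 ratio was 4.54, 4.49 and 4.96, a difference of −0.32 from DE_ctl (exact permutation p = 0.2, where 0.1 is the smallest that 3 against 3 allow). Log2 fold changes of the mitochondrial members had a median of −0.14, with 12 of 13 below 0. Those of the nuclear members had a median of 0.16, with 35 of 39 above 0, and none of either was called. The median of all genes was −0.02. The share of all genes on each side of 0 was not counted, so these signs are not read as an effect of the sgRNA. For MT-CO1 the 95% interval of the log2 fold change was −0.68 to 0.26 and for NDUFV1 −0.41 to 0.33. NDUFA4L2 had 19.7, 12.6 and 12.5 CPM in DE_CRISPRi, within the range of DE_ctl (−0.65, adjusted p = 0.992).

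In foregut, FG_CRISPRi against FG_ctl, 1 member passed, where 0.165% of 20044 genes did, 0.0499% higher and 0.115% lower. NDUFA4L2 had 9.22 and 17.04 CPM in FG_ctl and 0.69 and 2.45 CPM in FG_CRISPRi, that is 934 and 73 reads in all. It fell by 3.11 on the log2 scale (SE 0.67, adjusted p = 3.36e-03 by edgeR), and the groups did not overlap. The call rests on few libraries: it was lost without FG_ctl 1, without FG_ctl 2, with limma-voom and with a stricter count filter. MT-ND6 had an unadjusted p of 0.0300 (0.74, adjusted p = 0.9996), where 3.49% of genes had one under 0.05.

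The mitochondrial share was 28.4% and 17.5% in FG_CRISPRi and overlapped FG_ctl (difference 3.82 points, exact permutation p = 0.667, where 0.333 is the smallest that 2 against 2 allow). The log2 ratio of 6.67 and 5.71 overlapped as well (difference 0.33, exact permutation p = 0.667). In both foregut groups the library numbered 1 had the higher share, and the sign of both differences turned without FG_ctl 2 or without FG_CRISPRi 1. The nuclear sum in non-mitochondrial CPM was 4270 and 4324, a difference of 108 (exact permutation p = 0.333). Single nuclear members lay higher without overlap in 5 of 39 cases (background 9.71%) and lower in 11 (background 16%), counts that include NDUFA13, NDUFA7 and NDUFV2 near 0, and no mitochondrial member did.

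Whether the sgRNA effect differed between foregut and endoderm was tested as an interaction over 22708 genes, of which 0.194% passed, 0.0528% with a higher and 0.141% with a lower effect in foregut. No member did (edgeR). In simulated data 3 of 100 changes of 2-fold were recovered here and 6 of 100 in the foregut comparison, so changes of that size could be missed. Of 100 changes of 4-fold, 66 were recovered here and 69 in the foregut comparison. At an unadjusted p under 0.05 there were 3 members, where 8.23% of genes had one: NDUFA4L2 (log2 difference −2.47, SE 0.77, adjusted p = 0.400 by edgeR), and NDUFV2 and NDUFA7, which are near 0 counts. DESeq2 and limma-voom called none. No gene of the neighbouring lists passed in either sgRNA comparison or in the interaction.

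Gastruloids are aggregates of stem cells that elongate and form germ-layer derivatives. The RNA table held 3646 barcodes, of which 3500 with at least 1000 unique molecular identifiers (UMIs) and 200 genes were kept, with no limit on mitochondrial UMIs. They came from 1 preparation, so nothing was tested and the intervals cover counting error only. UMIs are tags of single captured molecules and were not divided by length. The 13 mitochondrial genes made up 15.98% of all UMIs, and the median nucleus had 15.7% (range 0.14% to 44.9%). The assay was made on purified nuclei, and mitochondrial transcripts lie outside the nucleus. How much of them was carried along, and whether this differed between the clusters below, was not tested. The 39 nuclear members had 6237 UMIs per 1000000 (95% interval 6217 to 6257), which gives a log2 ratio of 4.68.

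The order of the mitochondrial genes was not that of the bulk read shares, which grow with transcript length. MT-CO3 took 25.2% of the mitochondrial UMIs, MT-CO2 22.9%, MT-ATP6 11.9% and MT-CO1 10.7%, while MT-CO1 had the largest read share in every bulk library. In mean CPM per kb, MT-CO3 was above MT-CO1 in hESC (46744 against 30060) and FG_ctl (37150 against 36817). It was below MT-CO1 in DE_ctl (16772 against 22061), DE_CRISPRi (14851 against 18792) and FG_CRISPRi (45124 against 47679). The assays differ in what they count, and the values are set side by side only. Of the nuclear members, NDUFA4 (690.1 UMIs per 1000000), NDUFA13 (570.1), NDUFC2 (396), NDUFB11 (344) and NDUFS5 (306) were highest. NDUFA4L2 was lowest, at 3.14 (95% interval 2.71 to 3.62; 188 UMIs).

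Depth moved with both sums. From the shallowest to the deepest quartile of nuclei, the nuclear members fell in level from 8999 through 7867 and 7411 to 6838 UMIs per 1000000 non-mitochondrial UMIs, and the mitochondrial share went from 14.4% through 15.8% and 16.0% to 16.5%. Values of clusters below are therefore given with their median depth.

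The nuclei were clustered without the members, which gave 11 clusters. By the listed markers, cluster 0 was axial mesoderm-like (456 nuclei), cluster 1 somite and paraxial-like (591), cluster 4 segmenting mesoderm-like (320), cluster 5 presomitic mesoderm-like (497) and cluster 8 had 4 mitotic markers up (119). The others stay unnamed. The axial mesoderm-like cluster, led by PKD1L1 and WDR49, had the highest mitochondrial share, 17.95%, and the lowest nuclear level, 6443 UMIs per 1000000 non-mitochondrial UMIs (95% interval 6387 to 6500), at a median of 20510 UMIs. Cluster 9, led by SCGB1A1 (109 nuclei, median 24891 UMIs), had a share of 17.8%. The remaining clusters from 1 to 8 lay between 13.05% and 16.7%. Cluster 3, with a median of 8883 UMIs, had the highest nuclear level of the larger clusters, 10194. Cluster 10 (61 nuclei, median 2098 UMIs) had 5.53% mitochondrial UMIs and a nuclear level of 13999.

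Values of single members are given for the clusters that stood highest and for the others. MT-ATP6 had 27227 UMIs per 1000000 in cluster 0 and 26381 in cluster 9, and 13957 to 19317 in clusters 1 to 8. MT-ND2 had 6984 and 6495 in the former and 4028 to 4843 in the latter, while MT-CO3 had 35843 in cluster 0, below the 38475 to 44233 of all clusters from 1 to 8 but cluster 7. NDUFA4L2 had 12.9 UMIs per 1000000 non-mitochondrial UMIs in cluster 0 (95% interval 10.5 to 15.6; 101 UMIs) and 10.2 in cluster 9 (6.53 to 15.2; 24 UMIs). In clusters 1 to 8 it had 0.81 to 3.68, the latter from 1 UMI. NDUFA4 did not show that pattern, with 680.4 in cluster 0 and 743 to 1172 in clusters 1 to 8. Both clusters are deep, and the part of depth in these values was not tested.

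**Figure D4:**
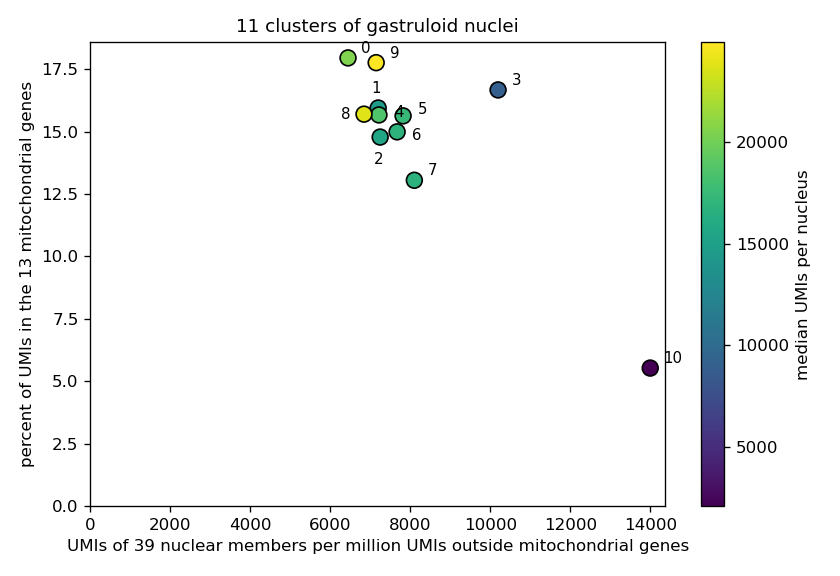
Mitochondrial percent of UMIs against nuclear member UMIs per 1000000 non-mitochondrial UMIs for the 11 clusters of gastruloid nuclei, coloured by the median UMIs of a nucleus. Cluster 0 is highest in mitochondrial percent (17.95%) and lowest in nuclear level (6443), and cluster 10, the shallowest, is at 5.53% and 13999.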

How the data were processed

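Bulk RNA-seq of 12 H9-derived libraries and single-nucleus RNA-seq of 1 gastruloid preparation were analysed, and the accessible peaks were not used. All deposited values are unnormalised counts. From a stranded mRNA kit, the authors placed bulk reads on hg19 with hisat2 and counted unique ones over genes and transposable elements with featureCounts, so reads shared with near-identical copies were dropped. The strand setting is not given in the sources used here. For nuclei the authors obtained the UMI counts from cellranger-arc (hg38). The members and all lists were chosen with earlier results of these data known.

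Genes with at least 3 reads in 1 sample of a comparison were tested on its groups alone with edgeR 4.0.16 (quasi-likelihood, TMM) in R 4.3.3, with a call at p under 0.05 after Benjamini-Hochberg adjustment over all genes. Library shares and ratios were compared with 2-sided exact permutation tests. Alternatives were limma-voom 3.58.1 (the study's test), DESeq2 1.42.0, other filters and scalings, all 12 libraries in 1 fit, a replicate block and leaving out each library. The fits were tested on simulated data with 100 genes changed 2-fold and 100 changed 4-fold. Of the 2-fold changes they recovered 56 for DE_ctl against hESC, 52 for DE_CRISPRi against DE_ctl and 32 for FG_ctl against DE_ctl. For FG_CRISPRi against FG_ctl they recovered 6 and for the interaction 3. Of the 4-fold changes they recovered 100, 100, 98, 69 and 66 in the same order.

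One member is not reported here. Named genes were all 13 mitochondrial genes, the nuclear core subunits, NDUFA4, NDUFA4L2, per comparison the 5 largest called rises and falls of other nuclear members, and at most 3 genes per neighbouring list, those with the smallest p. The other called accessory subunits, NDUFA6, members of low count, the top nuclear members in nuclei and the pseudogenes were named after their values were seen. Bulk depth was 11583063 to 37152434 gene reads. Nuclei were clustered with scanpy 1.11.5 (resolution 0.5, 30 components, members left out). Scrublet marked 4 of 3500 nuclei (0.114%), and none was removed. Symbols were found for 17405 of 17493 genes in nuclei.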

Additional observations from a re-analysis of the deposited data

How the results depend on the processing

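The count of members called for DE_ctl against hESC was 20 and became 13 with all 12 libraries in 1 fit, and 9 to 25 when leaving out 1 library, 9 without hESC 1 and 12 without hESC 2. The 20 were 38.5% of the 52 members tested, beside 37.9% of all genes. For DE_CRISPRi against DE_ctl the count was 0, and 1 at an unadjusted p. For FG_CRISPRi against FG_ctl it was 1, and 0 with limma-voom or edgeR's own count filter, 2 at an unadjusted p and 0 to 2 when leaving out 1 library. For FG_ctl against DE_ctl it was 16, and 27 at an unadjusted p and 13 to 25 when leaving out 1 library, 25 without FG_ctl 2. The 16 were 30.8% of the 52 members tested, beside 33.9% of all genes. The interaction had 0, and 1 when any read sufficed and 3 at an unadjusted p. Where no share of all genes is given for a fit, its count is not read as a result about the members. Over all genes, the calls for DE_ctl against hESC went from 7883 to 4493 with all 12 libraries. Those for DE_CRISPRi against DE_ctl went from 7 to 52 (DESeq2), 230 (any read) and 1 (limma-voom, no TMM, edgeR's own filter or all 12 libraries), those for FG_CRISPRi against FG_ctl from 33 to 209 (all 12 libraries), 11 (limma-voom), 1 (edgeR's own filter) and 527 (without FG_CRISPRi 1), and those of the interaction from 44 to 237 (DESeq2) and 139 (any read). Leaving out 1 library moved the foregut sgRNA difference of the log2 ratio between −0.15 and 0.81, and that of the mitochondrial share between −1.64 and 9.28 percentage points. It was −0.11 and −0.81 without FG_ctl 2, and −0.15 and −1.64 without FG_CRISPRi 1. The cause was not tested in these cases.

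In nuclei, the mitochondrial share was 15.8% with at most 25% mitochondrial UMIs, 16.0% with at least 5000 UMIs and 15.8% after thinning to 5000 UMIs. The log2 ratio was 4.67, 4.69 and 4.61 in that order, and the nuclear level 6204 with at least 5000 UMIs and 6475 after thinning. The highest mitochondrial share of a cluster was 17.9% at resolution 0.3 and 18.4% at 0.8, and the lowest nuclear level 6580 at 0.3. The 18.4% was that of a cluster of 33 nuclei, and a cluster of 447 nuclei followed with 18.0%. Which of them held the axial mesoderm-like nuclei was not traced. Of the comparisons of these values with their alternatives, 124 kept their side or size, 25 moved and 4 reversed. For single called members 409 kept the call, 72 lost it and 0 reversed.

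Same-numbered libraries share only a number. Their deviations correlated at 0.029 to 0.050 for DE_ctl with hESC, −0.038 to 0.010 for DE_CRISPRi with DE_ctl, −0.19 for the foregut groups and 0.14 to 0.17 for FG_ctl with DE_ctl. With a replicate block 17, 0, 1 and 23 members were called in the order above, and 0 in the interaction. A crossed pairing of the foregut groups, added after seeing the data, called 1 member and 77 genes in all, against 19 with the block and 33 without. In FG_ctl against DE_ctl, limma-voom, a filter of any read and the block shifted the median of all genes by −0.13, −0.26 and −0.11 on the log2 scale. With 2 or 3 libraries a group, the exact tests could not pass 0.05.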
